A study of Mus musculus with 9 samples.

Results

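In mouse embryonic stem cells carrying the WWD form of Dnmt3a2, mean methylation at the CpGs read was far lower than in cells carrying the wild-type form. In 320 regions of 1 kb the measured loss was smaller, though WWD was still below WT in most of them. These regions had a mean methylation level in WWD of at least 0.6 times their level in WT, where WT had at least 10% methylated reads. They were 1.60% of the 20058 regions with such a WT level, out of 43515 autosomal regions with enough CpGs. They were chosen by the measured levels of WT and WWD, so those levels are given as a description. The R level, the density of CpGs, the position and the reads outside the chosen CpGs were not used to choose them. The ratio of the WWD level to the WT level in a region is called its share below. The 12913 regions with a share under 0.3 served for comparison, and another 6825 regions lay between.

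All cells were of the J1 embryonic stem cell line at passages 7 to 10 and lacked the DNA methyltransferases (Dnmt TKO). The TKO group is 1 sample with no construct. WT, WWD and R carried wild-type Dnmt3a2 or mutants so labelled, and the labels of C record no construct. Each of these 4 groups has 2 samples, but the labels name 1 table of methylation calls for both, so each table was read as the pool of its group. No spread between replicates can be given, and each test compares the reads of 2 pools. How much of each construct the cells made was not measured here, and the labels do not say which residues the WWD and R names stand for.

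Dnmt3a2 is the shorter isoform of Dnmt3a, an enzyme that adds methyl groups to CpGs that carry none. Its ADD domain binds the unmodified tail of histone H3, and methylation of lysine 4 of that tail weakens the binding. Active promoters and many CpG islands carry that histone mark and usually lack DNA methylation. Methylation was read by reduced representation bisulfite sequencing, in which MspI cuts the DNA at CCGG, so that reads start at such sites and cover mainly CpG-rich DNA.

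A position is 1 CpG cytosine on 1 strand. Only full-depth positions were used: at least 10 reads in WT, WWD, R and TKO, and at least 0.5 times as many reads in TKO as in WT. There were 891320 on the autosomes, with median coverages of 121 reads in C, 135 in TKO, 137 in WT, 138 in WWD and 161 in R. Mean levels over them were 13.3% in WT, 3.41% in WWD, 13.3% in R, 0.171% in TKO and 0.255% in C. A region needed at least 5 such positions, and its level is the mean over them.

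The 320 regions held less methylation in WT than low-share regions did, and much more of it was present in WWD. Their mean level over regions was 22.5% in WT (SD over regions 12.8), 15.4% in WWD (SD 8.22) and 26.4% in R (SD 14.1). The low-share regions averaged 31.5% in WT, 6.31% in WWD and 30.9% in R. Across the 320, the WT level ran from 10.0% to 65.8% with a median of 17.9%. The WWD level ran from 6.03% to 43.9% with a median of 12.4%, and the R level from 6.07% to 81.1% with a median of 22.4%. In 11 of them WWD was at or above WT. In TKO and C the same regions were almost unmethylated: TKO averaged 0.140% with a highest value of 2.49%, and C averaged 0.317% with a highest value of 2.54%. None of the 320 reached 5% in either. The methylation seen in WWD was far above the level in TKO and C at the same CpGs. The limits on WT and on the share put a floor under the WWD level, and TKO averaged 0.176% over all 20058 regions. This contrast was thus largely set by the choice.

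**Figure D1:**
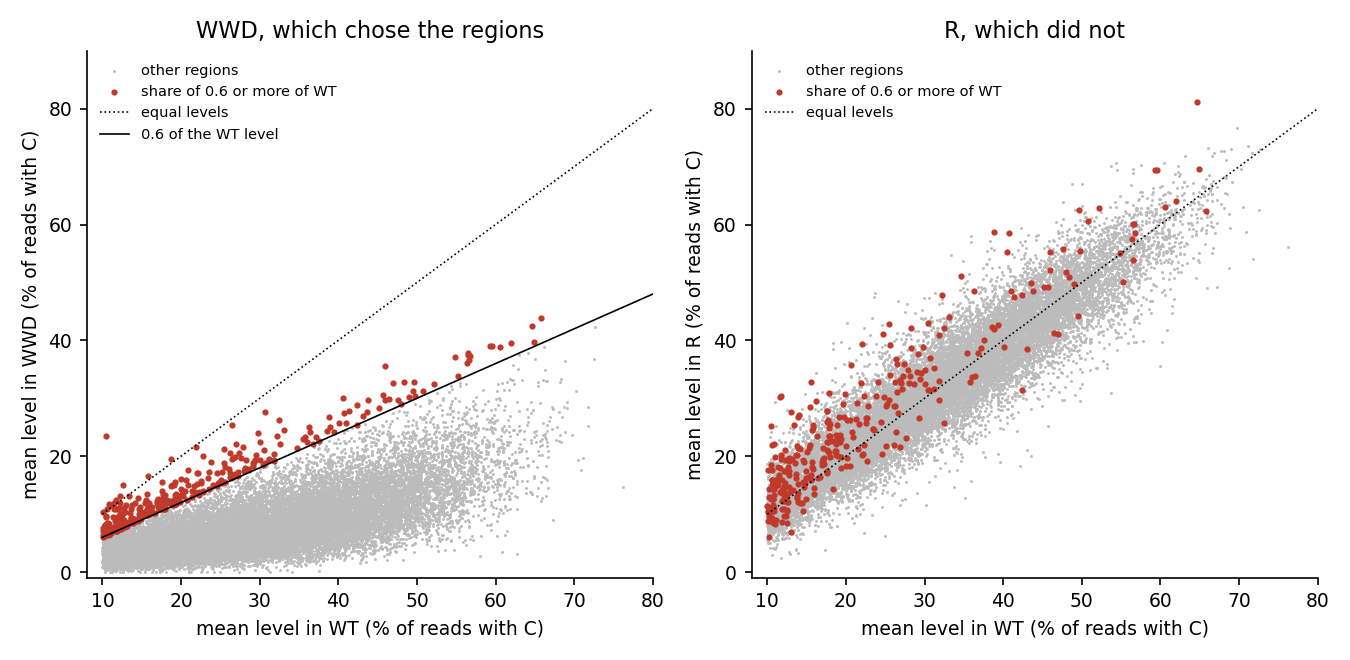
Mean level in WT (x axis, % of reads with C) against the mean level in WWD (left) and in R (right) for 20058 autosomal 1 kb regions, with the 320 regions of a share of at least 0.6 as red points. On the left the red points lie above the solid line by construction. On the right 252 of the 320 lie above the dotted line of equal levels. R took no part in the choice, but WT did, and low WT readings raise the share. The count of 252 was thus in part set by the choice.

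Because a low WT reading raises the share, each share was also taken against R. Of the 320 regions, 150 (46.9%) had at least 0.6 times the R level in WWD, 255 at least 0.5 times and 302 at least 0.4 times. Only 3 fell under 0.3 times R. The median ratio of WWD to R over the 320 was 0.596, against a median ratio to WT of 0.667. Of the low-share regions, 12012 (93.0%) were also under 0.3 times R and 7 reached 0.6 times R. The same WWD reads are in both ratios and chose both kinds of region, so a higher ratio to R in the 320 was largely set by the choice. The limit of 0.6 was met against both pools in 0.748% of the 20058 regions.

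R was above WT in 252 of the 320 regions (78.8%), compared with 43.9% of the low-share regions and 61.2% of those between. At like WT level, with low-share regions weighted to the 5 WT classes of the 320, R averaged 26.4% in the 320 and 23.2% in low-share regions, 3.13 points apart. The gap was present in every class: 17.5% against 16.1% at a WT level of 10 to 20%, 29.2% against 25.1% at 20 to 30%, and 38.6% against 34.0% at 30 to 40%. In the higher classes it was 48.8% against 42.7% and 62.3% against 51.4%, from 23 and 16 regions. Up to a WT level of 40% these gaps were smaller than the SD over regions in either kind (4.69 to 7.27 points). The class of 50% or more has no upper end, and its WT level was 58.3% in the 320 and 54.7% in low-share regions. Their sign followed the pool used for the choice. When regions of either kind were chosen by their ratio to R instead of WT, R was 3.14 points lower in the chosen regions (-3.14), and in the 150 regions that met the limit against both it was within 1 point of low-share regions (-0.512). In those 150 regions WT averaged 22.5%, WWD 16.1% and R 23.0%.

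**Figure D2:**
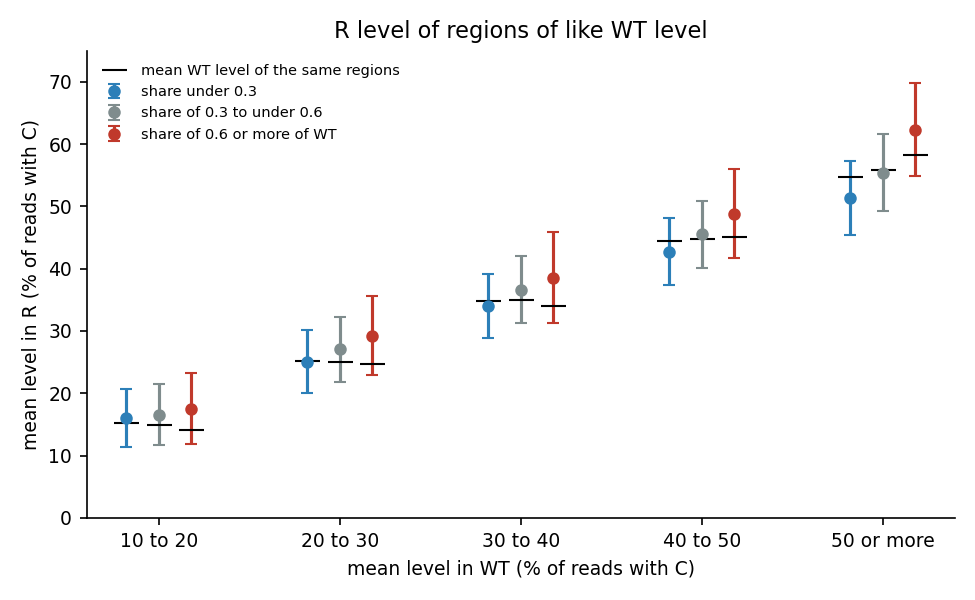
Mean R level (points; bars are 1 SD over regions) by class of WT level for regions of a share under 0.3, of 0.3 to under 0.6 and of at least 0.6, with black dashes at the mean WT level of the same regions. R lies above the WT dash in each class of the 320 regions and below it in the low-share regions of each class from 20% up. WT levels took part in the choice of both kinds of region.

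The R pool was methylated at these regions about as often as at all regions of at least 10% in WT. By Fisher's exact test on summed reads with Benjamini-Hochberg adjustment over all 43515 regions (adjusted p under 0.01 and at least 10 points), R was higher than TKO in 306 of the 320 (95.6%). It was higher in 97.98% of the 20058 regions with such a WT level, 98.0% of low-share regions and 46.7% of all regions. The count for the 320 is thus close to that of the regions they were taken from. R was higher than WT in 28 of the 320 (8.75%), while 0.735% of all regions were called in that direction. R was lower than WT in 0 of the 320, while 0.565% of all regions were called lower. At an unadjusted p under 0.05 by the same test, 143 of the 320 were higher (44.7%, against 16.7% of all regions) and 10 lower (3.13%, against 10.5% of all regions). WT levels chose the regions, so nothing is read from the comparison with WT. With reads divided by the number of positions, which counts a read no more than once, 292 of the 320 (91.3%) were higher than TKO, against 96.8% of low-share regions and 46.005% of all regions, and 0 of the 43515 regions were higher than WT.

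Counting error left the size of the share open in single regions. Intervals were computed for the ratio of WWD to WT from summed reads, which can differ from the share of mean levels. The mean coverage per position was taken as the number of reads, which makes intervals wide where separate sets of reads cover a region. This 95% interval lay wholly above 0.3 in 248 of the 320 regions and wholly above 0.6 in 7. Its upper end passed 1 in 245 regions. The same reads chose the 320, so low ends above 0.3 were largely set by the choice. At the limit there was no break: the 10 regions just above it had shares of 0.6004 to 0.6046 and a median R level of 25.4%, and the 10 just below had shares of 0.597 to 0.5997 and a median R level of 24.99%. Shares of at least 0.7 were found in 102 regions and of at least 0.8 in 42. The highest share, 2.24, was on chromosome 11 from 49403001 to 49404000 (coordinates throughout are of mm9; no gene annotation of that build was used, so no gene is named). Over 7 positions read by 1 set of reads WT had 10.5%, WWD 23.5% and R 18.5%. The mean was 38 reads in WT and 29.4 in WWD, and the interval of the ratio from summed reads ran from 0.730 to 6.997. This region had few reads, and its R level was between those of WT and WWD.

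Among regions with at least 8 positions and a mean of at least 30 reads in WT, WWD, R and TKO (94 of the 320), the highest R level was on chromosome 5 from 131916001 to 131917000. There WT had 47.6%, WWD 29.6%, R 55.8%, TKO 0.146% and C 0.481% over 8 positions. On chromosome 10 from 118297001 to 118298000, WT had 48.3%, WWD 32.8% and R 50.9% over 9 positions, with 0% in TKO and 0.123% in C. Both regions were thus strongly methylated in WT, WWD and R and almost unmethylated in TKO and C. On chromosome 5 from 118748001 to 118749000, where WT (49.5%) was above R (44.2%), WWD had 31.2%, or 0.707 times R. On chromosome 14 from 99841001 to 99842000 the levels were 42.4% in WT, 25.5% in WWD and 47.8% in R, with a share of 0.6014 just above the limit. The other 4 of the 8 regions named for their R level were on chromosomes 3, 4, 11 and 18, with shares of 0.648 to 0.683. The regions with the most positions held little methylation. That on chromosome 17 from 83945001 to 83946000 had 28 positions, with 10.6% in WT, 7.29% in WWD and 14.3% in R. On chromosome 4 from 127003001 to 127004000, over 22 positions, WT had 14.5%, WWD 8.78% and R 10.6%. On chromosome 9 from 43728001 to 43729000, over 20 positions, WT had 12.2%, WWD 8.45% and R 14.3%.

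One region combined many positions with a high level. On chromosome 11 from 96585001 to 96586000, 19 positions averaged 45.7% in WT, with a range of 9.49% to 72.9%. WWD averaged 30.6%, with a range of 2.87% to 68.6%, and R 49.2%, with a range of 6.18% to 75%. TKO had 0.134% and C 0.272%. The share was 0.669 of WT and 0.621 of R. WWD did not lose a fixed fraction at each CpG. Positions within 50 bases on a strand share their reads. Among the reads at the upper end of this region, the 6 inner CpGs had 53.5%, 58.4%, 48.7%, 48.7%, 54.1% and 69.4% in WT and 39.2%, 47.5%, 41.8%, 47.5%, 45.2% and 68.6% in WWD. At the first CpG of those reads, at base 96585642, WT had 17.1%, WWD 3.42% and R 28.7%. The same reads thus held CpGs with nearly the WT level and a CpG with far less of it (ratio 0.2004). A low-share region with many positions, on chromosome 12 from 5057001 to 5058000, had means of 62.3% (WT), 62.04% (R) and 17.5% (WWD) from 23 positions. There 1 of the 23 positions reached 0.6 times WT, compared with 11 of the 19 on chromosome 11.

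**Figure D3:**
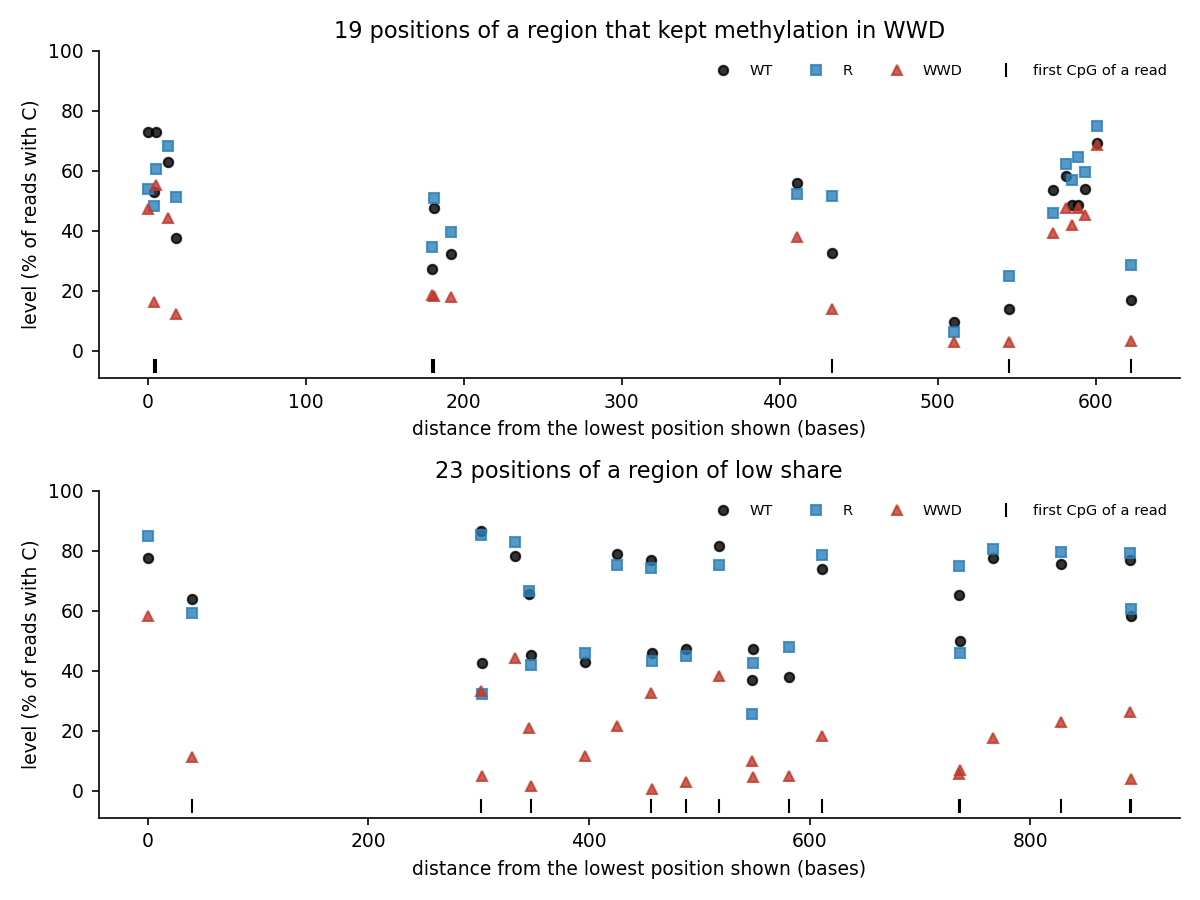
Level (% of reads with C) in WT, R and WWD at each full-depth position of a region with a share of 0.669 (top, 19 positions) and of a region with a share of 0.281 (bottom, 23 positions), by distance in bases from the lowest position; ticks mark the first CpG of a read. WWD points lie close to WT in the right-hand group of the top panel, except at its first CpG.

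The same unevenness held across the 320 regions. Of their 2381 positions, 144 had no methylated read in WT. Of the other 2237, 1099 (49.1%) had at least 0.6 times the WT level in WWD, against 2.01% of such positions in low-share regions. This follows in part from the choice of the regions. All such positions reached 0.6 in 6 regions, and under 50% of them did so in 146. The ratio also differed with place in the read. The limit of 50 bases was taken from the coverage, since neighbouring coverages differed by a median of 1.03-fold at gaps of 41 to 50 bases and 1.67-fold at 51 to 60. Positions that share reads are called a read group, and its first CpG lies nearest to the start of the reads. In the 320 regions first CpGs had 17.3% in WT and 9.89% in WWD, a ratio of 0.573, and inner CpGs had 23.3% and 17.0%, a ratio of 0.730. In low-share regions the ratios were 0.169 and 0.231. First CpGs made up 35.3% of a region's positions in the 320 and 42.4% in low-share regions of like WT level. Their part in the choice of regions was not tested beyond leaving them out. Then 6001 regions still had 5 positions and a WT level of at least 10%, and 250 (4.17%) had a share of at least 0.6, of which 111 were among the 320.

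The reads that took no part in the choice gave lower shares, except at positions that missed the limits on TKO coverage. For this check regions were chosen on 1 strand, with at least 3 positions on each strand and a WT level of at least 10% on the first, and read on the other. Within regions chosen on the forward strand, the reverse strand had 19.4% in WT and 7.81% in WWD, a ratio of 0.402 over 235 regions. Low-share regions chosen in the same way had a ratio of 0.262. Chosen on the reverse strand and read on the forward strand, the ratios were 0.380 over 219 regions and 0.264. At least 0.6 was reached again on the other strand in 25 of the 235 regions (10.6%) and 30 of the 219 (13.7%). Low-share regions did so in 1.89% and 1.74% of cases. On the second strand any WT level with methylated reads was accepted. The WT level there was 19.4% and 17.2% in the chosen regions and 31.2% and 30.7% in low-share regions. Without matching of WT level, a higher share on 1 strand thus came with a higher share on the other. Most regions did not repeat the limit of 0.6. Both strands of a region share the same DNA and may hold overlapping fragments.

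The ratio was also higher next to the 320 regions, and the values were nearer to each other from 5 kb outward than at 1 kb. In regions 1 kb away from the 320, leaving out the 320 themselves and positions within 50 bases of the shared edge, WT had 13.9% and WWD 4.41%, a ratio of 0.318 over 177 regions, compared with 0.250 beside low-share regions. At 5 kb the ratios were 0.297 and 0.257, at 10 kb 0.275 and 0.259, at 20 kb 0.280 and 0.257, and at 50 kb 0.281 and 0.260. The gap did not narrow steadily. Only the 320 were left out, so neighbours could be low-share or intermediate regions themselves, classed as such by the reads counted here. On summed reads the ratios at 1 kb were 0.321 and 0.251, with 95% counting intervals of 0.301 to 0.343 and 0.248 to 0.253. At 50 kb the intervals were 0.273 to 0.325 and 0.259 to 0.267, and the spread between regions is not part of them. The neighbours of the 320 had a lower WT level than those of low-share regions (13.9% against 21.7% at 1 kb), and its part in the ratios was not tested.

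The 320 regions also held 992 positions, in 208 regions, that were covered in WT, WWD and R but missed the limits on TKO coverage. There WT had 26.0%, WWD 26.2% and R 31.5%, a ratio of WWD to WT of 1.01. The same class of positions gave 0.708 in low-share regions, so the order of the classes was the same at a higher ratio throughout. Depth differed between the pools at these positions, with median coverages of 102 reads in WT and 29 in WWD. TKO averaged 1.48% over those of them that were covered in TKO. The part of depth in these ratios was not tested. The number of regions hung on this condition: without the limit on TKO coverage, 5723 of 33875 regions (16.9%) had a share of at least 0.6, and 294 of the 320 were among them.

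**Figure D4:**
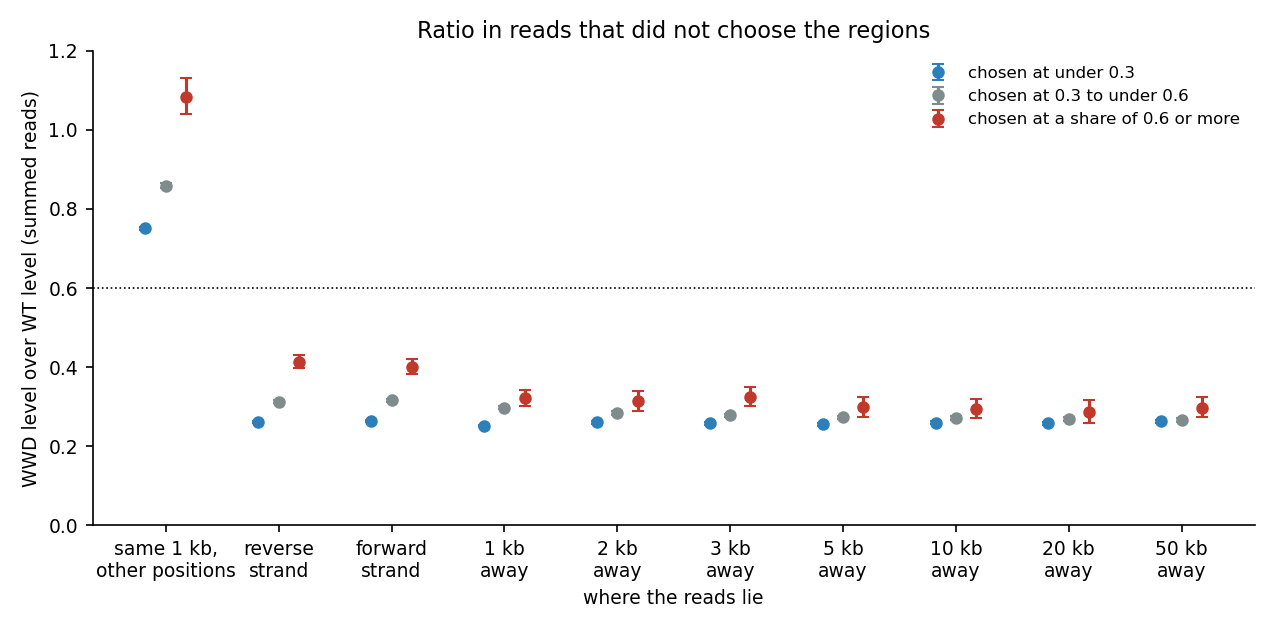
Ratio of the WWD level to the WT level from summed reads (bars are 95% counting intervals) in reads that did not choose the regions, for 3 classes of share: other positions of the same 1 kb, the opposite strand after a choice on 1 strand, and regions 1 to 50 kb away. The red points, for a share of at least 0.6, are above the blue points at each place, and the distance between them is smaller from 1 kb outward than on the opposite strand.

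CpG density set the 320 regions little apart on average. They had a mean of 7.44 full-depth positions and low-share regions of like WT level 7.05, with a median of 6 in both. Positions covered in WT at any depth numbered 11.1 and 10.04 per region. Regions with 20 to 39 covered positions had a share of at least 0.6 in 3.50% of cases (36 of 1030, exact 95% interval 2.46 to 4.81), compared with 1.42% of those with 5 to 9 positions (1.21 to 1.65). Regions with a share of 0.3 to under 0.6 had 7.57 full-depth and 10.8 covered positions. Weighted to the WT classes of the 320 they had 8.15 and 12.01, so their order against the 320 in covered positions turned with the weighting.

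Distance to dense DNA gave a similar picture. A region with at least 40 covered positions lay within 2 kb of 19 of the 320 (5.94%, exact 95% interval 3.61 to 9.12), compared with 4.52% of low-share regions of like WT level, a difference within that interval. A region with at least 20 lay within 2 kb of 67 of the 320 (20.9%), compared with 13.4% of low-share regions and 22.2% of those between when both were weighted to the WT classes of the 320. Unweighted, these were 9.99% and 14.97%. Of regions that themselves had at least 20 covered positions, 3.41% had a share of at least 0.6 (exact 95% interval 2.41 to 4.67). The percentage was 2.32 at 1 to 2 kb, 1.55 at both 3 to 5 kb and 6 to 10 kb, 1.45 at 11 to 50 kb, 1.77 at 51 to 100 kb and 1.11 beyond 100 kb (0.834 to 1.45). It did not fall steadily with distance. The 150 regions that met the limit against both WT and R lay within 2 kb of such a region more often (28.0%) than the other 170 (14.7%). Above a WT level of 20% the direction turned: the 135 regions left had fewer full-depth positions than low-share regions (difference -0.178), and fewer of them had a region of at least 40 positions within 2 kb (difference -0.756 points). For regions of at least 20 positions, the percentage within 2 kb was 27.6% against 16.6% at a WT level of 10 to 20%, 17.6% against 11.2% at 20 to 30% and 7.14% against 7.98% at 30 to 40%. It was 8.70% against 6.54% at 40 to 50% and 0% against 4.07% at 50% or more, from few of the 320.

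Low WT level and low depth went with a share of at least 0.6. The WT level is the denominator of the share and took part in the choice, so the trend with it was in part set by the choice. Among regions with 10 to 20% in WT, 4.27% had such a share (exact 95% interval 3.69 to 4.92), compared with 0.532% at 30 to 40% (0.354 to 0.768) and 0.964% at 50% or more. By R level, which was not used, the percentages were 3.12 at 10 to 20%, 0.661 at 40 to 50% and 1.60 at 50% or more. By mean WT coverage they were 5.11% under 50 reads, 1.39% at 100 to 150 reads and 0.662% at 200 reads or more. The 320 had a mean of 121 WT reads per position, compared with 141 in low-share regions of like WT level. They had 2.73 read groups per region, compared with 3.04, and 80 of them, or 1 in 4, had all their positions on 1 strand, compared with 11.7% of all low-share regions. Fewer reads and fewer read groups make a share less precise. The intervals given above use the reads that made the choice, so they do not test the part of counting error in it. That part was not tested beyond the opposite strand.

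**Figure D5:**
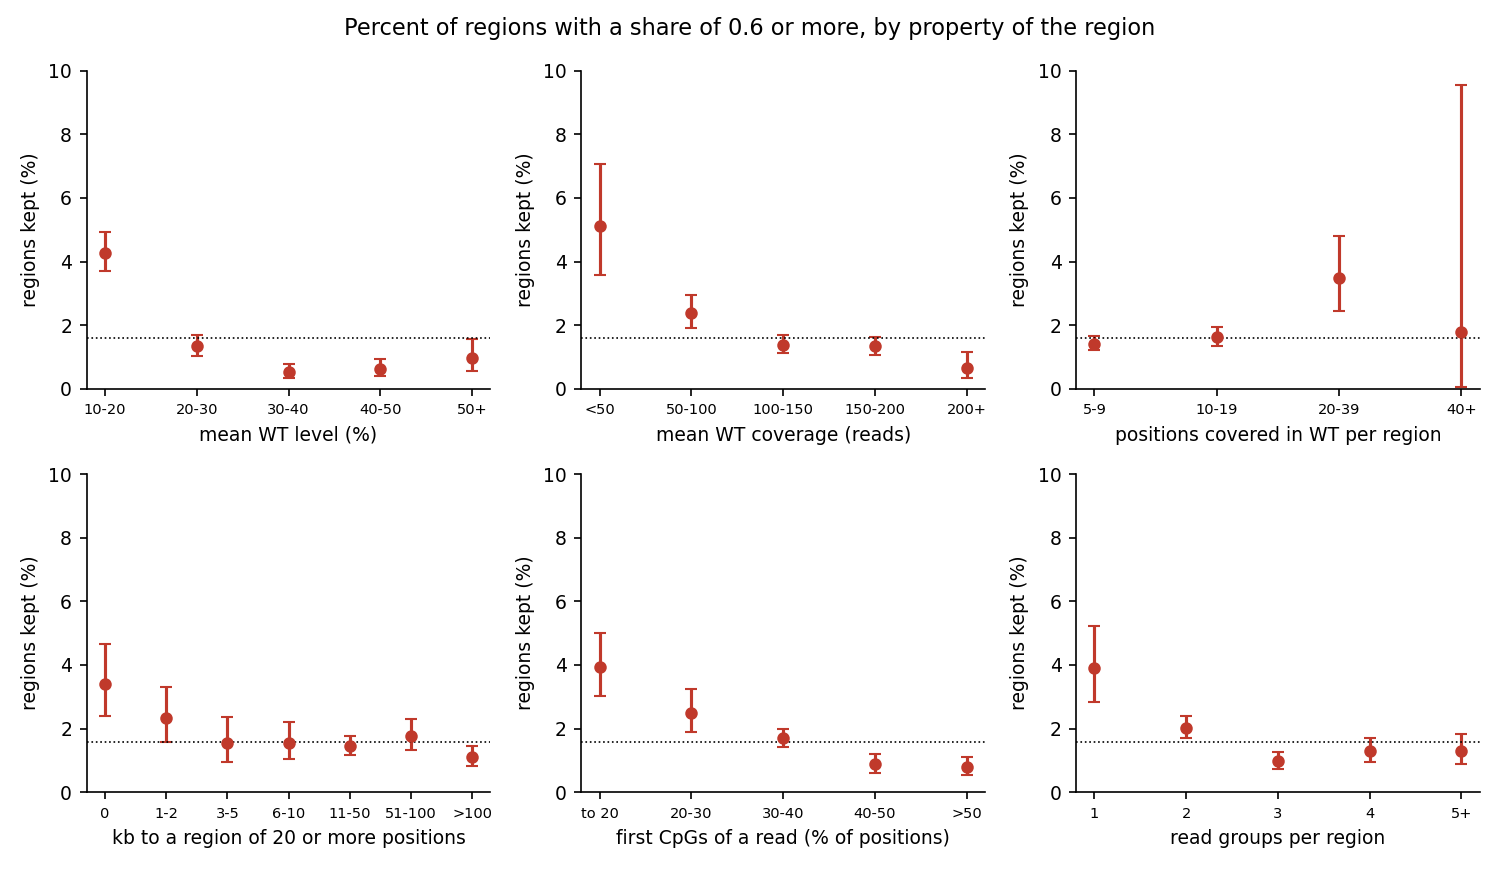
Percentage of regions with a share of at least 0.6 (points; bars are exact 95% binomial intervals, regions as units) by WT level, WT coverage, covered positions, distance to a region of at least 20 covered positions, percentage of positions that are first CpGs of a read, and number of read groups; the dotted line is the 1.60% of all 20058 regions. The highest percentages are at a WT level of 10 to 20%, under 50 reads, and in regions of few first CpGs or 1 read group. The WT level took part in the choice of the regions.

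The 320 regions were spread over all 19 autosomes. The percentage of regions with such a share was highest on chromosome 3, at 2.85% (24 of 841), followed by 2.47% on chromosome 16 and 2.14% on chromosome 5. It was lowest on chromosome 9, at 0.776% (8 of 1031), and 0.956% on chromosome 8. Of 502 windows of 5 Mb, 323 held none of the 320, 107 held 1, 36 held 2 and 36 held at least 3. The window with the most was on chromosome 11 from 115000001 to 120000000, with 8 of its 247 regions. Another of the 320 lay within 100 kb of 11.3% of them, compared with 6.81% of low-share regions, and within 10 kb of 2.50%, compared with 0.852%. A single pair was adjacent, on chromosome 11 from 62944001 to 62946000. Its first region had 12.6% in WT, 15.1% in WWD and 18.2% in R, a share of 1.2001, and the second 10.6%, 8.004% and 15.8%, a share of 0.757. Most of the 320 thus had no other within 100 kb. Within 1000 kb 45.3% of them had another, compared with 36.8% of low-share regions. A neighbour could count only if it had at least 5 full-depth positions.

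Of the 320 regions, 41 (12.8%) met the limit under each of 7 other readings of the level together: a coverage minimum of 20 reads, levels from summed reads, strands merged, the TKO level subtracted, the highest coverages left out, first CpGs left out, and a share of at least 0.6 of both WT and R. The median level of these 41 was 18.8% in WT, 15.8% in WWD and 20.2% in R. They had a median of 9 positions in 3 read groups and a median coverage of 144 WT reads. With first CpGs left out a region still needed 5 positions, so some of the 320 failed for lack of positions and not for their share. The 12.8% and these medians were thus in part set by the readings. The WT levels of the 41 ran from 10.5% to 60.6%. The region with 60.6% in WT was on chromosome 13 from 99462001 to 99463000, with 38.9% in WWD and 63.0% in R over 7 positions. The regions named above on chromosome 10, on chromosome 11 from 96585001 and on chromosome 5 from 118748001 were among the 41, and that on chromosome 5 from 131916001 was not.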

How the data were processed

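RRBS libraries of 9 samples in 5 groups were made from DNA cut with MspI, per the labels' protocols. Bismark, methylKit and the build mm9 are named in the submitters' processing notes, without versions. Per the file headers, the deposited values are the coverage of each CpG position and strand, a count of reads, and its level, the percent of reads with C. Every table used lists positions with at least 10 reads. Each of 5 tables was read as its group's pool, and 8 columns of values were not used.

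Methylated reads were taken as coverage times percent, rounded. Region levels are means over positions, so deep positions weigh no more than others. Summed reads count a read once per CpG, so p-values from them are too small. Two-sided Fisher's exact tests (scipy 1.17.1) with Benjamini-Hochberg adjustment ran over 43515 regions. They were also run on simulated reads of R against WT. Those reads were drawn independently, so the simulation cannot show the effect of counting a read once per CpG. Intervals are 95% (Wilson, log ratio or exact Clopper-Pearson) and cover counting error only, PCR copies included. Comparisons at like WT level weight low-share or intermediate regions to the 5 classes of WT level (10 points wide, the last open). Named regions are the 8 of the 320 with the highest R level and the 4 with the most positions (at least 8 positions and 30 reads per pool), the 4 low-share regions of highest R level, those nearest the limit, and adjacent ones; the highest share and the 41 regions that met 7 readings were added after their values were seen. Alternatives changed the coverage and depth limits, the share, the level, the strands, the reference pool and the classes. The regions and lists were chosen with earlier results of these data known. Read groups were defined after seeing the coverage. No genome or gene annotation of mm9 was used here, so no sequence or gene is given.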

Additional observations from a re-analysis of the deposited data

How the results depend on the processing

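No paired analysis was possible because each group is 1 table, without separate values for its samples; leaving out a replicate was not possible for the same reason. The values reported were 320 regions, a median ratio of WWD to R of 0.596, an R level 3.13 points above low-share regions, 0.389 more full-depth positions and 1.42 points more regions near a region of at least 40 positions. The cause of the shifts below was not tested. With a share of at least 0.5 there were 988 regions and a ratio of 0.514; with at least 0.7 there were 102, a ratio of 0.656 and 0.0363 more positions. Without the condition on TKO coverage there were 5723 regions, a ratio of 0.645, an R difference of 4.54 points and 0.991 more positions. With TKO coverage of at least 0.8 times WT the difference in positions was 0.131, and with levels from summed reads it was 0.107. With at least 8 positions there were 94 regions, a ratio of 0.579, an R difference of 2.33 points, 1.02 more positions and -0.681 points near a dense region. With a WT level of at least 20% there were 135 regions, an R difference of 5.38 points, -0.178 positions and -0.756 points near a dense region. With the share taken against R there were 245 regions, and 137 of the 320 (42.8%) were among them. The ratio was 0.664, which was set by that choice, the R difference -3.14 points and the dense difference 6.36 points. Against low-share regions under 0.2 the R difference was 3.74 points, and against all regions under 0.6 it was 2.65. With dense regions of at least 20 positions the difference was 7.58 points. Among alternatives chosen after seeing the data, leaving out first CpGs gave an R difference of 2.53 points; a share of at least 0.6 of both pools gave 150 regions, a ratio of 0.686 and an R difference of -0.512 points. The ratio of WWD to WT in unused reads was 1.01 at other positions of the region, 0.402 and 0.380 on the opposite strand and 0.318 at 1 kb. Requiring 20 points left 190 of the 320 regions with R above TKO (59.4%). This compares with 79.5% of low-share regions, 79.1% of the 20058 regions and 36.5% of all regions. It left 0 with R above WT, against 11 of all 43515 regions, and divided reads left 0 of either. Coverage minimums of 20 and 30, subtraction of TKO, merged strands and removal of the highest coverages left each of these values within its counting error or within 1.5-fold. The regions themselves changed more: 237 of the 320 were among the 349 found with merged strands. With levels from summed reads 239 of them were among 329. Single-region shares are limited by depth, and no value here has a replicate error.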
